A study of Mus musculus with 4 samples.

Results

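The genes described here encode splicing factors and heterogeneous nuclear ribonucleoproteins (hnRNPs), together with the RNA-binding motif (Rbm) genes that share their nomenclature. They were taken by symbol: every gene named Srsf, Hnrnp, Sf3a or Sf3b, Prpf, U2af or Rbm followed by its number or letter, read from a probe set that the platform annotation gives to that gene alone. Of 22180 genes with such a probe set, 81 matched, on 99 probe sets, and each gene was read from its brightest probe set, averaged over the 4 arrays. By family they were 12 Sf3 and U2af genes, 12 Prpf genes, 10 Srsf genes, 18 Hnrnp genes and 29 Rbm genes. The symbol was the only criterion, and the Rbm symbols cover proteins with widely different roles.

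Each of the 4 arrays measured total RNA of 1 mouse culture of the strain background Black6-129X1/SvJ, pooled from males and females per the labels. Fibroblasts carrying doxycycline-inducible reprogramming factors (repMEFs) were sampled as bulk cultures on day 6 after doxycycline was added. One had a Firefly knockdown, aimed at an insect luciferase that mouse cells lack, and the other a knockdown of Sumo2, which encodes a small ubiquitin-like modifier. The other arrays hold stable induced pluripotent stem cells (iPSC) that came from Sumo2 knockdown fibroblasts and carry the labels 38 h and 10 day. Per the labels all cells grew in embryonic stem cell medium with serum, and ascorbic acid was given along with doxycycline. The labels do not say what the iPSC times count, how many clones an array holds or whether cultures were separate, and iPSC from control cells were not analysed here. No condition has a replicate, so p-values measure only the spread within each kind of culture. In bulk RNA, fewer cells of a type and less RNA per cell cannot be told apart.

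Splicing removes introns from pre-mRNA in a series of steps carried out by small nuclear ribonucleoproteins (snRNPs) and many associated proteins. U2AF and the U2 snRNP, of which SF3A and SF3B are parts, mark the end of the intron and its branch point, and the PRP proteins include core parts of the U4/U6.U5 tri-snRNP that forms the catalytic centre. SR proteins mostly promote the use of the exons they bind, while hnRNPs often repress exons and also act in RNA export, stability and translation. Fibroblasts and pluripotent cells splice many exons differently. SRSF1 is known to promote the attachment of SUMO to other proteins, and many hnRNPs are SUMO targets.

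Values are log2 expression. A gene counted as measured when it reached the median of all probe sets with 1 gene, the measuring floor (6.64 to 6.67 on the 4 arrays), on at least 1 array compared. On the arrays Sumo2 itself read 10.65 with Firefly knockdown and 10.56 with the label Sumo2 knockdown, 93.8% of the control level, and 11.40 and 11.07 in the 38 h and 10 day iPSC. The transcript did not show the knockdown, so the sample goes by its label here. Among fixed marker genes, 6 of 6 pluripotency and 5 of 5 epithelial markers rose from day 6 to iPSC, and 3 of 6 fibroblast markers fell while Fbln2 rose. Of the markers of other cell types, the blood genes Ptprc and Csf1r, the endothelial gene Kdr and the glial gene Sox10 lay below the floor on all 4 arrays. The rest went both ways: Cd68, Lyz2, Pecam1, Tubb3 and Des rose, and the muscle gene Myod1 fell (-0.72). Endothelial Cdh5 (-0.74), neural Map2 (-0.41) and muscle Myog (-0.55) were lower in iPSC but did not pass. Of the cell cycle markers 4 of 5 rose, all but Mki67 (log2 difference 0.37). Their summed log2 level was 45.6 and 48.4 in the day 6 cultures (Firefly, then Sumo2) and 54.5 and 54.2 in the 38 h and 10 day iPSC. The part that cell makeup or proliferation had in the differences below was not tested.

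Of the 81 genes, 70 had at least 1 promoter in the RefSeq-based table for GRCm38.p6, 91 promoters in all. The stretches shown are the 250 bases before the transcript start for the gene with the largest rise in each family, among genes above the floor on every array with 1 listed promoter, and for Srsf3, the gene furthest apart at day 6. They run 5′ to 3′ along the gene, and capitals mark matches on either strand to 8 short motifs. The ETS factors' motif was searched as CCGGAAG. The motif of the SP family was taken as GGGCGG. For NFY the letters were CCAAT. A half-site of NRF1 was written as CATGCGC. The E-box was CACGTG. A half-site of the cyclic AMP element (CRE) was TGACGT. YY1 was given by ATGGCGG. The TATA box was given by TATAAA. Matches may overlap.
Sf3b1, chr1:55027479-55027728, minus strand: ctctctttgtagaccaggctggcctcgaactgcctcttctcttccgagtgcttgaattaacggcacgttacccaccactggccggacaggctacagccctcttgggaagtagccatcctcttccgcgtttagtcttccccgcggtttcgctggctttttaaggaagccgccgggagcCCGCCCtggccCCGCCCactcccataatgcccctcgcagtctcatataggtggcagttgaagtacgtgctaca
Prpf38a, chr4:108579337-108579586, minus strand: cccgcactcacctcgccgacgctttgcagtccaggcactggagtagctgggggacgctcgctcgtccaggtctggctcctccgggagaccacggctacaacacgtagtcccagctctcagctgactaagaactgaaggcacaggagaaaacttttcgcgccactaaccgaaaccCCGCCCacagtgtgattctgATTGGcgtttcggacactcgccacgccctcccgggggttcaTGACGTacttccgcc
Srsf10, chr4:135855821-135856070, plus strand: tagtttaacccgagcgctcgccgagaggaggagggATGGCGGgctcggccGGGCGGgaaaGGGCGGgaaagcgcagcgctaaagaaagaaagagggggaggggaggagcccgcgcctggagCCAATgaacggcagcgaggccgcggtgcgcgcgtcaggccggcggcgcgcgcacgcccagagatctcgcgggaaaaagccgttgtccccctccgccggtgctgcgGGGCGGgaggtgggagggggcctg
Hnrnpa3, chr2:75659009-75659258, plus strand: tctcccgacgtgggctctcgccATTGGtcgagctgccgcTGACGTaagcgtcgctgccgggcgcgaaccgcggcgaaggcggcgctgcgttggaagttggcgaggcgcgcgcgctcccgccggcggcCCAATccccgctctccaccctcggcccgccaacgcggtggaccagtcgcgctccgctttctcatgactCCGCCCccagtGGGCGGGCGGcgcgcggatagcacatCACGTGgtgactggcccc
Rbm26, chr14:105177315-105177564, minus strand: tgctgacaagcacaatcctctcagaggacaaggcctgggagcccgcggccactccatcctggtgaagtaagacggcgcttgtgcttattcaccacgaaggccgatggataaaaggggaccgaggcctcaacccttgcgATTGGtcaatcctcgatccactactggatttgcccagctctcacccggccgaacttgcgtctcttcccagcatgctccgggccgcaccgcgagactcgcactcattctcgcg
Srsf3, chr17:29032410-29032659, plus strand: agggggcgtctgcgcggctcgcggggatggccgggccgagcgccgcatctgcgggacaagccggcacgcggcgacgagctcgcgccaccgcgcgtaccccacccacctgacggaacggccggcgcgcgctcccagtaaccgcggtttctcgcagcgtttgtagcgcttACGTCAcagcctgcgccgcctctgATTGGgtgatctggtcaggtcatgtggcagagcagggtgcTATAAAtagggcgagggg
These windows differ in their motifs. Sf3b1 has only SP matches (2), Rbm26 a lone NFY match, and Srsf3 a TATA match with its first base 18 bases upstream of the start. Hnrnpa3 has the most kinds (SP, NFY, E-box and CRE half-site), 2 of its SP matches overlap, and it has 40 CpG dinucleotides against 16 in Sf3b1. Over all 91 promoters of these genes the median was 19 CpG, against 15 over the promoters of all measured genes and 6 over all 32851 promoters. The ETS letters were in 24.2% of the 91 promoters, 12.6% of those of all measured genes and 6.91% of all promoters. The SP letters were in 56%, 57.6% and 32.7% in the same order, the NFY letters in 46.2%, 35% and 33.8%, the CRE half-site in 14.3%, 9.45% and 6.47%, and the E-box in 11%, 8.41% and 6.02%. YY1 letters were in 7.69%, 3.63% and 2.21%, the NRF1 half-site in 4.4%, 5.52% and 3.24%, and TATA in 8.79%, 6.67% and 12.4%. A match describes the letters only, and binding was not measured.

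**Figure D1:**
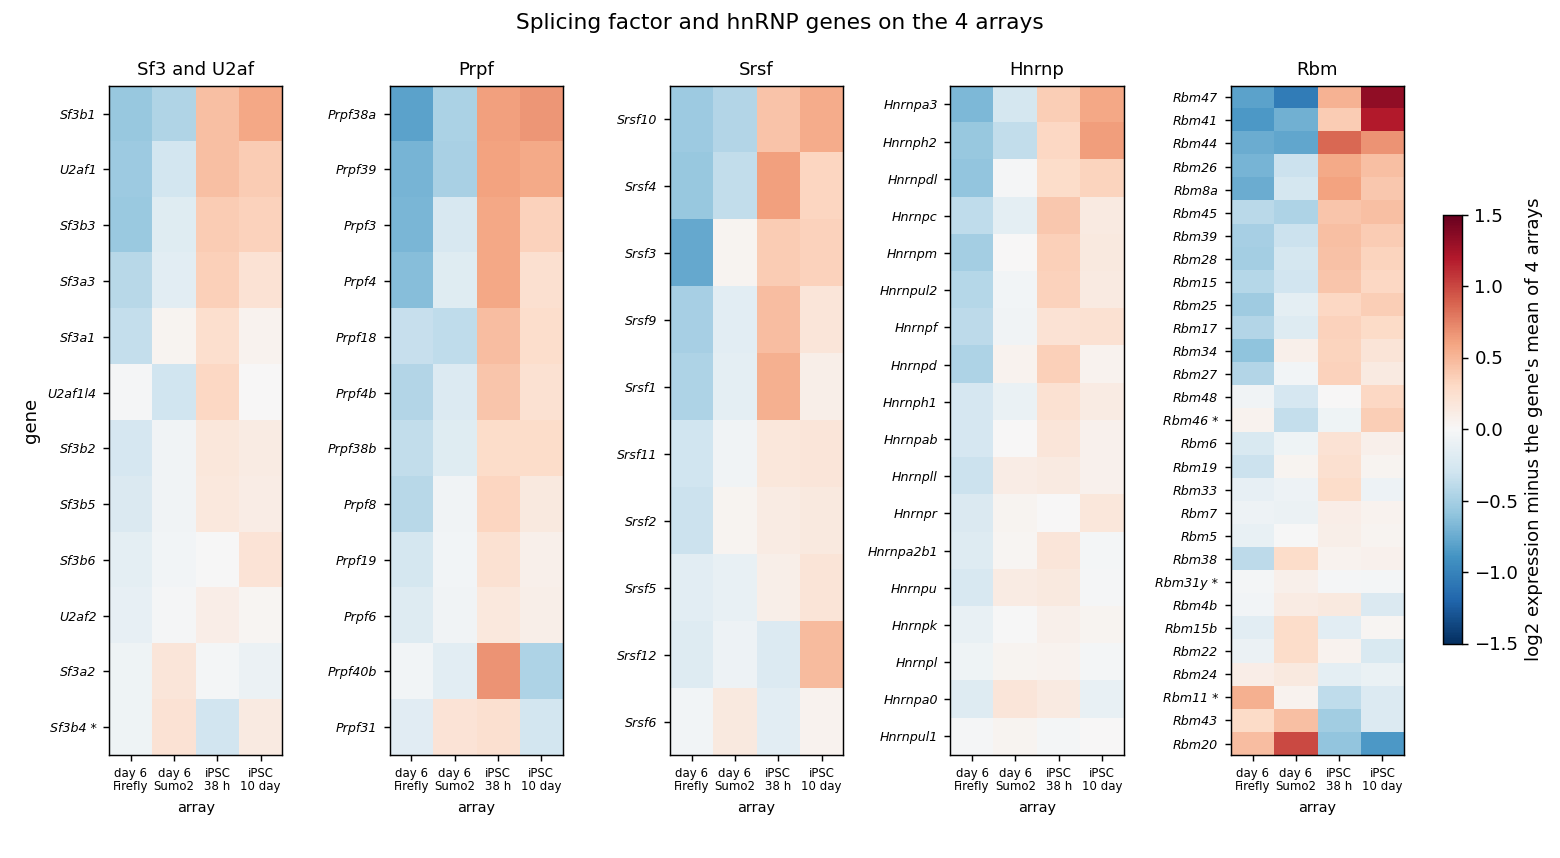
Log2 expression of the 81 genes on each of the 4 arrays, minus the gene's own mean over the arrays (colour scale in log2 units), by family and in order of the difference between iPSC and day 6. An asterisk marks the 4 genes below the measuring floor on all arrays; the Firefly column is the lowest for 58 of the 77 measured genes.

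The first comparison asked how the levels of these genes in the iPSC differed from those in the day 6 cultures. Many splicing genes rose moderately in iPSC, and 2 fell. Of 77 measured genes 30 rose, 2 fell and 45 did not pass (limma, adjusted p under 0.05 over all 12735 measured genes), against 29.0% of all measured genes that rose and 17.8% that fell. As shares, 39.0% of the measured splicing genes rose and 2.6% fell. The median log2 difference was 0.35, against 0.15 over all measured genes. With a size rule of 2-fold on the values as read, 8 rose, or 10.4% against a background of 14.3%, and 1 fell, or 1.3% against 9.12%. Counted from the floor, the lower bounds for Rbm47 (1.19-fold), Rbm44 (1.81-fold) and Rbm8a (1.87-fold) fell short of 2-fold. Both iPSC arrays lay above both day 6 arrays for 56 genes (72.7%, against 46.8% of all measured genes) and below them for 3 (3.9%, against 32.7%). Rbm20 and Rbm24 reached the floor only in day 6 cultures and Rbm44 and Rbm47 only in iPSC. Each of these passed the filter only through the kind of culture where it was higher. The genes below the floor on all arrays were Rbm11, Rbm31y, Rbm46 and Sf3b4.

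The count of rises depends on the arrays and the scaling. At an unadjusted p under 0.05, 37 genes differed in either direction, or 48.1% against 55.4% of all measured genes. Without the Firefly array 11 genes rose, 14.3% against 15.0% of all genes in that fit, so at that point the share of rises is at the background, while 1 fell (1.3% against 9.28%). Without the 38 h array 20 rose (26.0% against 25.4%), again at the background, and 1 fell (1.3% against 15.9%). Without the 10 day array 28 of 76 rose (36.8% against 24.4%) and 2 fell (2.63% against 15.5%), and without the array labelled Sumo2 knockdown 37 rose (48.1% against 22.7%) and 1 fell (1.3% against 12.9%). After cyclic loess 21 rose (27.3% against 23.0%), and after scaling to 1 upper quartile 21 rose (27.3% against 20.6%), with 2 falls each against backgrounds of 21.5% and 25.2%. With the filter set on the mean of the arrays 29 of 76 rose (38.2% against 30.2%), and with no filter 26 of 81 (32.1% against 16.2%). These scalings moved the median of all measured genes from 0.15 to 0.02 and -0.04. By direction alone, 67 of the 77 splicing genes were higher and 10 lower in iPSC as deposited (58.1% of all measured genes were higher), but 55 were higher and 22 lower after either rescaling (51.2% of all genes higher after loess and 47.4% after upper-quartile scaling). In all, 14 genes turned direction under at least 1 of these scalings, none of them called. Relative to the median of all genes, the splicing genes stood 0.20 higher as deposited and 0.21 higher after loess. Upper-quartile scaling shifts all genes of an array alike, so it could not change this gap (0.20). Of all genes called, 62% rose as deposited, 51.6% after loess and 45.0% after upper-quartile scaling.

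Among the Sf3 and U2af genes, 4 of 11 measured genes rose and 0 fell, against 29.0% and 17.8% of all measured genes. Sf3b1, the large SF3B subunit that holds the branch point, read 10.71 with Firefly and 10.82 with Sumo2 knockdown, and 11.73 and 11.86 in the 38 h and 10 day iPSC. The kinds of culture did not overlap, and the rise was 2.04-fold (log2 1.03, SE 0.11, limma adjusted p = 0.00119). Its partner Sf3b3 read 10.80, 11.17, 11.74 and 11.70 in the same order. U2af1, the small U2AF subunit that recognises the AG at the end of the intron, read 9.11, 9.38, 10.11 and 10.04. Both rose, Sf3b3 1.66-fold (limma adjusted p = 0.00839) and U2af1 1.78-fold (limma adjusted p = 0.00866), and in each the iPSC arrays were closer to each other than the day 6 arrays were. Sf3a3, a further SF3A subunit, rose 1.49-fold (limma adjusted p = 0.0327), a call that either rescaling ended (adjusted p = 0.109 after loess and 0.106 after upper-quartile scaling), as did leaving out the Firefly (0.137), 38 h (0.116) or 10 day array (0.0538).

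The remaining subunits chosen by symbol did not pass. The differences were 0.31 for Sf3a1, 0.30 for Sf3b2, 0.27 for Sf3b5, 0.19 for Sf3b6 and -0.11 for Sf3a2. Phf5a, an SF3B subunit gene outside these symbols, rose 2.18-fold, from 9.80 and 10.14 to 11.13 and 11.05 (limma adjusted p = 0.00254). U2af2, the large U2AF subunit that binds the pyrimidine tract, had a log2 difference of 0.13 (SE 0.12, limma adjusted p = 0.382), which turned to -0.05 after loess and -0.06 after upper-quartile scaling, as Sf3b6 also turned. The U2af1 paralog U2af1l4 read 8.41, 8.12, 8.73 and 8.42, so its 10 day value was close to the Firefly value, and its difference of 0.31 did not pass. Sf3b4, a subunit of the same complex, read 5.35, 5.62, 5.13 and 5.54, below the floor on all 4 arrays, and how well its probe set responds was not tested.

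In the Prpf family 8 of 12 genes rose and 0 fell, against 29.0% and 17.8% of all measured genes. The median difference was 0.59. Prpf38a, a factor needed to activate the spliceosome, read 8.23 with Firefly, 8.56 with Sumo2 knockdown, 9.64 in 38 h and 9.69 in 10 day iPSC. Both iPSC arrays stood more than a log2 unit above either day 6 array, a 2.41-fold rise (log2 1.27, SE 0.18, limma adjusted p = 0.00265). Its relative Prpf38b rose less, 1.46-fold, from 7.50 and 7.69 to 8.14 and 8.14 (limma adjusted p = 0.0343, but 0.0849 after loess, 0.122 after upper-quartile scaling and 0.0574 with no filter), and leaving out any 1 array ended its call (0.0716 to 0.169). Prpf39, known as a U1-associated factor in yeast, read 8.16, 8.36, 9.45 and 9.42 and rose 2.26-fold (limma adjusted p = 0.00256).

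Of the tri-snRNP genes, Prpf3 and Prpf4, whose products bind each other on U4/U6, rose 1.90-fold and 1.76-fold (limma adjusted p = 0.0133 and 0.0237), Prpf4 no longer passing after either rescaling (0.0542 and 0.0543). Prpf8, the U5 protein at the catalytic centre, rose 1.38-fold, from 11.39 and 11.75 to 12.12 and 11.96 (limma adjusted p = 0.035). Its call ended after loess (0.0663), after upper-quartile scaling (0.143), without the intensity trend (0.0884) and with no filter (0.0507). Its value under the Sumo2 label lay nearer to the 10 day than to the Firefly value. Prpf18, a factor of the second catalytic step, rose 1.65-fold (limma adjusted p = 0.0139) and the kinase gene Prpf4b 1.56-fold (limma adjusted p = 0.0254, but 0.0819 after loess and 0.0762 after upper-quartile scaling). The U5 and tri-snRNP bridging gene Prpf6 (0.25), the ubiquitin ligase gene Prpf19 (0.30), Prpf31 of the U4 snRNP (-0.04) and Prpf40b (0.20) did not pass. Prpf31 read 9.44, 9.81, 9.85 and 9.33, with the Firefly and 10 day arrays low and the other two high. Without the Firefly array the calls of Prpf3, Prpf4, Prpf4b, Prpf8 and Prpf18 ended (adjusted p from 0.0742 to 0.138). Without the 38 h array those of Prpf4, Prpf4b, Prpf8 and Prpf18 ended (0.0604 to 0.100), and without the array labelled Sumo2 knockdown that of Prpf18 (0.0684).

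**Figure D2:**
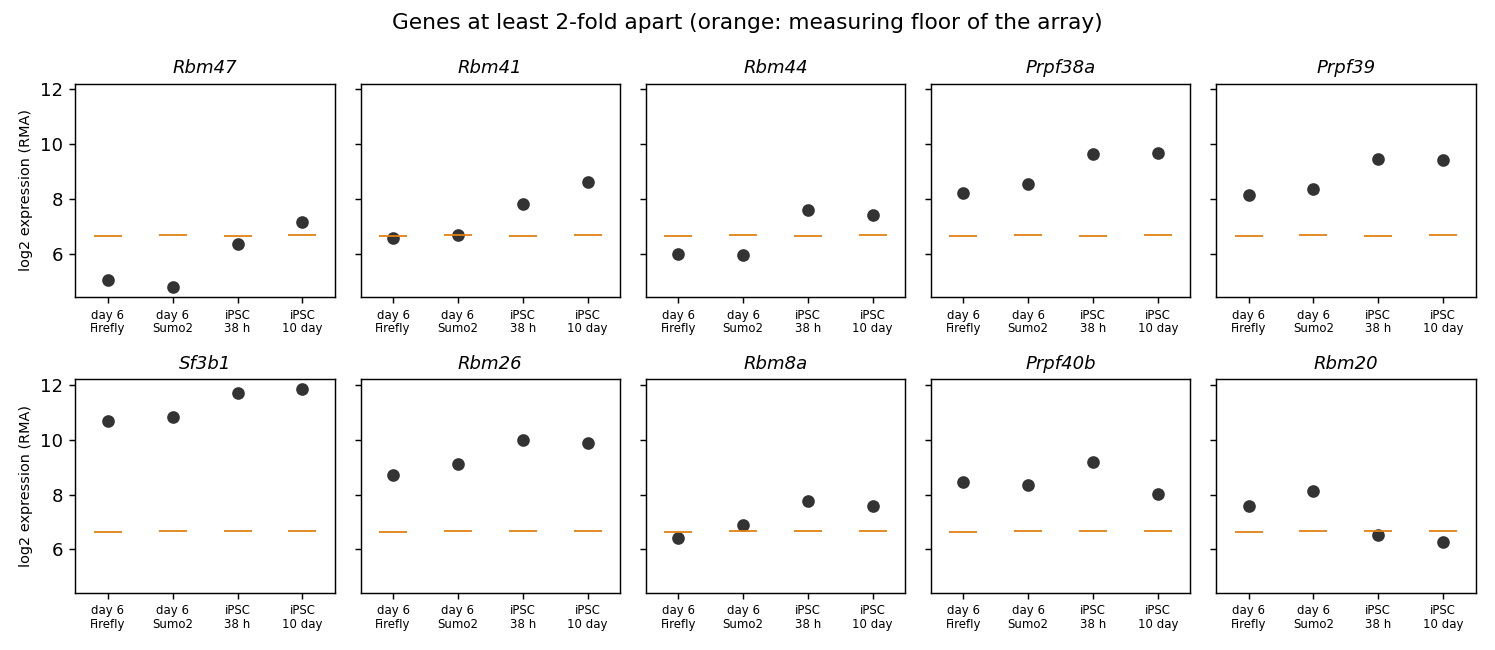
Log2 expression on the 4 arrays (points) of the 8 genes that rose and the 1 that fell at least 2-fold as read. Prpf40b, the gene 2-fold apart between the iPSC, is also shown. Orange dashes mark the measuring floor, and counted from it the lower bounds for Rbm47, Rbm44 and Rbm8a fall short of 2-fold. Rbm47, Rbm44 and Rbm20 lie below the floor in at least 2 cultures, while Prpf38a, Prpf39, Sf3b1, Rbm26 and Prpf40b lie above it in all 4.

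Of the SR protein genes 4 of 10 rose and 0 fell, against 29.0% and 17.8% of all measured genes. Srsf10, an SR protein whose dephosphorylated form represses splicing after heat shock, read 7.77 with Firefly, 7.88 with Sumo2 knockdown, 8.75 in 38 h and 8.88 in 10 day iPSC. The day 6 values were close to each other and well below the iPSC values, a 1.98-fold rise (log2 0.99, SE 0.16, limma adjusted p = 0.00425). Its relative Srsf12 lay near the floor, at 6.58, 6.69, 6.56 and 7.24, and only its 10 day value stood apart. Among the related genes Srsf4, Srsf5 and Srsf6, Srsf4 rose 1.92-fold, from 8.26 and 8.46 to 9.45 and 9.16 (limma adjusted p = 0.00786, and 0.0589 without the Firefly array). The other two did not pass, at log2 differences of 0.27 and -0.10.

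Srsf1, the founding SR protein, and its relative Srsf9 rose 1.53-fold and 1.57-fold (limma adjusted p = 0.0484 and 0.0362). Srsf1 read 9.64, 9.95, 10.63 and 10.19, with no overlap, but the 10 day value was nearer to the day 6 value of the culture labelled Sumo2 knockdown than to the 38 h value. Its call rested on the probe set chosen: a dimmer Srsf1 probe set had a log2 difference of -0.29, and the median over both gave 0.16 (limma adjusted p = 0.516). Both rescalings ended the calls of Srsf1 and Srsf9 as well, with adjusted p from 0.100 to 0.133. So did leaving out the Firefly array (0.217 and 0.171) or the 38 h array (0.199 and 0.138), and for Srsf1 the array labelled Sumo2 knockdown (0.0672). Srsf3, a small SR protein that also takes part in mRNA export, read 8.72, 9.53, 9.87 and 9.83. The Firefly array alone was low, and the difference between iPSC and day 6 (0.73, SE 0.27) did not pass (limma adjusted p = 0.0679). Srsf2, which binds exonic enhancers, had a log2 difference of 0.28 and Srsf11 of 0.35, and neither passed.

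The hnRNP genes were less often called than the other families, though that difference was not tested. Of 18 genes 3 rose, 0 fell and 15 did not pass, with a median difference of 0.30. Over all measured genes 29.0% rose and 17.8% fell, so the share of rises here was below the background. Of the A/B family, Hnrnpa3 read 9.07 with Firefly, 9.47 with Sumo2 knockdown, 10.10 in 38 h and 10.31 in 10 day iPSC. The iPSC values stood clear of the day 6 values, a 1.92-fold rise (log2 0.94, SE 0.19, limma adjusted p = 0.00946), whose adjusted p was 0.0515 without the Firefly array. Its relatives Hnrnpa2b1 and Hnrnpa0 had log2 differences of 0.16 (SE 0.15) and 0.01 (SE 0.19), and their day 6 and iPSC values overlapped. Both of these turned below 0 after either rescaling.

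Of the F/H family, whose proteins bind runs of G, Hnrnph2 read 8.22, 8.41, 9.09 and 9.41 and rose 1.92-fold (limma adjusted p = 0.00855). A second probe set of Hnrnph2 differed by only 0.11, and the median over both did not pass (0.52, limma adjusted p = 0.0845), nor did the used one without the Firefly array (0.0638). Hnrnph1 (0.35) and Hnrnpf (0.44) were higher in both iPSC arrays than in both day 6 arrays but did not pass. The other Hnrnpf probe sets above the floor on all arrays differed by 0.66, 0.67 and -0.17. Hnrnpc, which binds runs of U and keeps cryptic exons out of mRNA, rose 1.45-fold, from 10.89 and 11.12 to 11.67 and 11.40 (limma adjusted p = 0.0233). Its call ended after loess (0.0607), after upper-quartile scaling (0.0888), without the intensity trend (0.0547) and without the Firefly array (0.119) or the 38 h array (0.091). Of Hnrnpd, Hnrnpdl and Hnrnpab, which bind AU-rich RNA, none passed, at 0.41, 0.60 and 0.25 with limma adjusted p from 0.0531 to 0.143. A second Hnrnpd probe set differed by -0.34.

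Several hnRNP genes read nearly alike on every array. Hnrnpk, a binder of runs of C, read 12.33, 12.43, 12.51 and 12.47, Hnrnpl 11.40, 11.49, 11.51 and 11.42, and Hnrnpul1 11.48, 11.55, 11.47 and 11.51. The relatives Hnrnpll (0.20), Hnrnpu (0.12) and Hnrnpul2 (0.48) did not pass either. The Hnrnpu probe set used read 11.82, 12.18, 12.20 and 12.04, but a second Hnrnpu probe set read 8.70 and 8.82 at day 6 and 10.55 and 10.52 in iPSC, a difference of 1.77. Hnrnpk was split as well, since its other probe sets differed by -0.16 and -0.61. Which of the Hnrnpu and Hnrnpk probe sets read the main transcript was not tested.

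**Figure D3:**
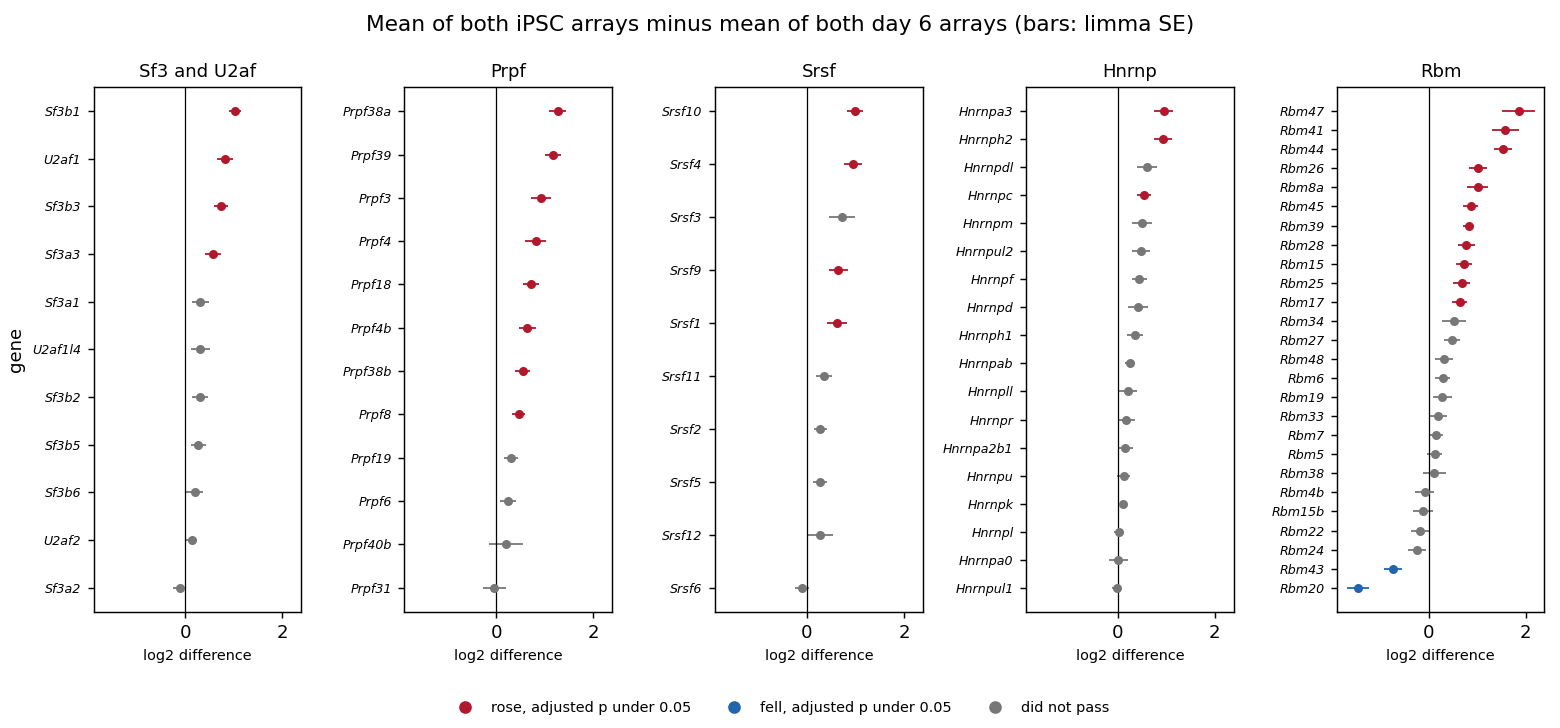
Log2 difference between the mean of both iPSC arrays and the mean of both day 6 arrays for the 77 measured genes by family, with the limma SE as bars; red genes rose, blue genes fell and grey genes did not pass at adjusted p under 0.05. In the 4 families other than Rbm, 19 of 51 measured genes rose and 0 fell, against 29.0% and 17.8% of all measured genes.

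In the Rbm family 11 of 26 measured genes rose, 2 fell and 13 did not pass. Over all measured genes 29.0% rose and 17.8% fell. The spliceosomal members Rbm39, Rbm25 and Rbm17 rose 1.77-fold, 1.60-fold and 1.55-fold. Rbm39, a U2AF-like coactivator, read 10.98, 11.16, 11.94 and 11.86, with the kinds of culture well apart (log2 0.83, SE 0.11, limma adjusted p = 0.00214). Rbm25 and Rbm17, which takes part in the choice of the end of the intron, had limma adjusted p = 0.0177 and 0.019, and Rbm17 no longer passed after either rescaling (0.0570 and 0.0579). Without the Firefly array neither passed (0.0672 and 0.086), and without the 38 h array Rbm17 did not (0.0599). The related splicing regulators Rbm5 and Rbm6 did not pass, at 0.12 and 0.29, nor did Rbm22 of the catalytic spliceosome (-0.18), whose highest array was the culture labelled Sumo2 knockdown (10.32, 10.69, 10.46 and 10.18).

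Rbm8a, also called Y14, a core protein of the exon junction complex, read 6.43, 6.91, 7.78 and 7.57. Its Firefly value lay below the floor, and it rose at least 1.87-fold counted from there (log2 1.01 as read, SE 0.22, limma adjusted p = 0.0118, and 0.076 without the Firefly array). Rbm26 read 8.73, 9.10, 9.99 and 9.88 and rose 2.02-fold (limma adjusted p = 0.0063), while its paralog Rbm27 went from 10.43 and 10.82 to 11.21 and 11.00, a difference of 0.48 that just missed the threshold (limma adjusted p = 0.0566). The products of both act in nuclear RNA turnover. Rbm15, part of the complex that methylates adenosines in mRNA, rose 1.65-fold (limma adjusted p = 0.013, and 0.0867 without the Firefly array), whereas its paralog Rbm15b read 7.43, 7.86, 7.43 and 7.62 and differed by -0.12. The difference between the paralogs was not tested.

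The largest rises as read were those of dim Rbm genes. Rbm47, an RNA-binding protein of epithelia and endoderm, read 5.02 and 4.77 at day 6, 6.34 in 38 h and 7.16 in 10 day iPSC. It lay above the floor only in the 10 day line, so a 3.61-fold rise as read came to at least 1.19-fold counted from the floor (log2 1.85 as read, SE 0.34, limma adjusted p = 0.00621). Without the 10 day array it was below the floor and not tested. Rbm44, a protein of germ cell bridges in mice, read 6.00, 5.97, 7.61 and 7.42, below the floor at day 6 and above it in both lines, and rose at least 1.81-fold (limma adjusted p = 0.0017). Rbm41 read 6.56, 6.70, 7.81 and 8.61 and rose at least 2.91-fold (limma adjusted p = 0.00568, and 0.0562 without the Firefly array).

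Rbm20 and Rbm43 were the genes that fell. Rbm20, a regulator of titin splicing in heart and skeletal muscle, read 7.60 with Firefly, 8.13 with Sumo2 knockdown, 6.54 in 38 h and 6.27 in 10 day iPSC. It was highest in the culture labelled Sumo2 knockdown and below the floor in both lines, a fall of at least 2.30-fold (log2 -1.46 as read, SE 0.23, limma adjusted p = 0.0041). Of the muscle markers, Myod1 fell, Des rose and Myog did not pass. Rbm43 read 7.56, 7.73, 6.76 and 7.07 and fell 1.66-fold (limma adjusted p = 0.0218). Its call ended without the Firefly (0.0836), Sumo2-labelled (0.114) or 38 h array (0.083). The muscle regulator Rbm24 was near the floor, at 6.86, 6.91, 6.62 and 6.66, and its relative Rbm38, a p53 target that controls mRNA stability, read 9.24, 9.90, 9.68 and 9.70, so only its Firefly value was low. Rbm4b did not pass either (-0.08).

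Of the 32 genes called, 11 kept their calls under each of the 11 alternatives to the fit (filters, scalings, probe set rule, limma settings and each array left out): Sf3b1, Sf3b3, U2af1, Prpf38a, Prpf39, Srsf10, Rbm26, Rbm39, Rbm44, Rbm45 and Rbm20. Of these, Rbm44 reached the floor only in iPSC and Rbm20 only at day 6. Each thus entered the main fit only through the kind of culture where it was high, which limits what its stable call shows. The 4 arrays also had a common order. The Firefly array was the lowest of the 4 for 58 of the 77 measured genes (75.3%, against 38.1% of all measured genes) and the highest for 0, against 26.0%. The 38 h array was the highest for 49 (63.6%, against 30.3%), the 10 day array for 18 (23.4%, against 28.0%) and the array labelled Sumo2 knockdown for 10 (13.0%, against 15.7%). Each iPSC array was the lowest for 6 genes, 7.79% against 20.3% of all genes for the 38 h array and 22.7% for the 10 day array, and the Sumo2-labelled array for 7 (9.09%, against 19.0%).

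The second comparison set the day 6 cultures against each other, 1 array with 1, and has no replicate check and no p-value. Most splicing genes stood slightly above the Firefly control in the Sumo2-labelled culture. Of 75 genes measured at day 6, 69 were higher and 6 lower, or 92.0% higher against 53.7% of all 11740 measured genes. The median log2 difference was 0.24, against 0.02 over all genes, whose differences had an SD of 0.33. None reached 2-fold in either direction, against 0.945% of all genes higher and 0.23% lower. At 1.5-fold 3 were higher, 4.0% against a background of 4.09%, and 0 lower, against 2.81%. After cyclic loess 63 were higher and 12 lower, with 46.3% of all genes higher, and upper-quartile scaling left 69 and 6, with 48.7% of all genes higher. The pattern was thus a small shift of many genes, and large differences were no more common than elsewhere.

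By family, 10 of 10 Srsf genes, 18 of 18 Hnrnp genes, 10 of 11 Sf3 and U2af genes, 10 of 12 Prpf genes and 21 of 24 Rbm genes were higher. After loess Srsf5, Hnrnpk, Hnrnpl, Hnrnpul1, U2af2 and Rbm33 turned lower. The family medians were 0.30 for Hnrnp, 0.23 for Prpf, 0.22 for Srsf, 0.21 for Rbm and 0.19 for Sf3 and U2af. Srsf3 was furthest apart, 8.72 against 9.53, or 1.75-fold. Rbm34 (1.60-fold, 7.72 against 8.40) and Rbm38 (1.58-fold) followed. Next came Hnrnpdl (0.58), Rbm20 (0.53), Hnrnpd (0.52), Hnrnpm (0.52) and Rbm8a (0.47 as read and 0.26 from the floor). Probe sets of Rbm38 and Hnrnpd were split. The other Rbm38 probe sets differed by -0.06 and 0.71, the latter below the floor with Firefly knockdown, and the other Hnrnpd probe set by 0.07. At the other end were U2af1l4 (-0.29), Rbm48 (-0.20), a factor of the minor spliceosome, Prpf40b (-0.12), Rbm45 (-0.05), Prpf18 (-0.03) and Rbm7 (-0.02), a subunit of a nuclear exosome targeting complex, with Rbm33 (0.04) and Srsf5 (0.05) just above 0. Other markers moved in the same pair: 5 of 5 cell cycle markers and 5 of 5 epithelial markers read higher under the Sumo2 label, and 6 of 6 fibroblast markers lower. The 4 pluripotency markers measured at day 6 were also higher. Their part in the splicing gene shift was not tested.

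**Figure D4:**
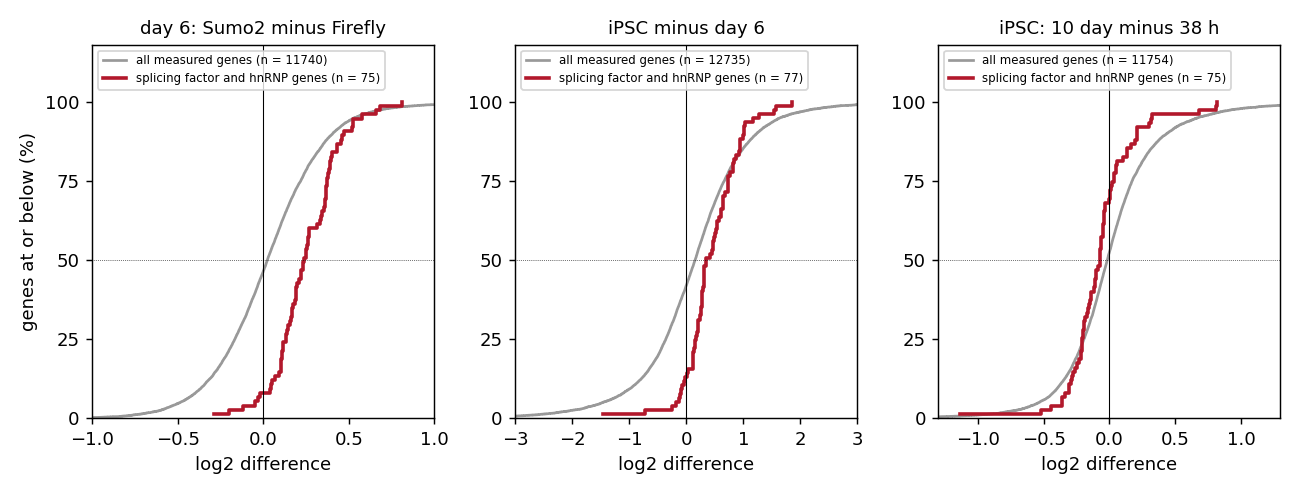
Cumulative share of genes (%) at or below each log2 difference, for all measured genes (grey) and the splicing factor and hnRNP genes (red), in the day 6 pair, between iPSC and day 6, and in the iPSC pair. The red medians are 0.24, 0.35 and -0.07, against 0.02, 0.15 and -0.02 for all genes.

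The third comparison set the iPSC lines against each other, again 1 array with 1. Of 75 measured genes, 52 were lower and 23 higher in the 10 day line than in the 38 h line, 69.3% lower against 52.5% of all 11754 measured genes and 30.7% higher against 47.4%. The median difference was -0.07, against -0.02 over all genes with an SD of 0.41. The lone gene 2-fold apart was Prpf40b, a relative of a yeast U1 protein, at 8.47 and 8.35 in the day 6 cultures, 9.18 in the 38 h line and 8.04 in the 10 day line. The 38 h array alone was high, 2.20-fold above the 10 day array. That is 1.33% of the genes lower by 2-fold, against 1.03% of all genes, and 0 were higher by 2-fold, against 2.19%. At 1.5-fold 3 were higher (4.0% against 6.44%) and 1 lower (1.33% against 4.11%).

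Apart from Prpf40b the genes lowest in the 10 day line were Prpf31 (-0.52), Srsf1 (-0.44), Rbm4b (-0.36), Rbm33 (-0.36), Prpf4 (-0.34), U2af1l4 (-0.31) and Hnrnpd (-0.31). Of the Prpf genes 11 of 12 were lower, against 52.5% of all measured genes, though Prpf38b (-0.006) turned to 0.010 after loess. The highest were Rbm47 (0.82 as read, 0.50 from the floor), Rbm41 (0.81), Srsf12 (0.68 as read, 0.58 from the floor), Hnrnph2 (0.32), Rbm43 (0.31), Rbm48 (0.30), Srsf6 (0.21) and Hnrnpa3 (0.21). Rbm41 and Hnrnph2 are on the X chromosome, the only 2 measured genes of these families that are. Of all 393 measured X-linked genes 90.1% were higher in the 10 day line, with a median of 0.57, against 45.9% of the autosomal genes with a median of -0.03. The splicing genes on autosomes had a median of -0.07, with 21 of 73 higher. X-linked Rbmx, which encodes hnRNP G, stood 1.20 higher in the 10 day line.

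A further 97 spliceosome genes outside these symbols were listed, and 85 had a probe set of their own. Of 83 measured, 48 rose from day 6 to iPSC, 1 fell and 34 did not pass (limma, adjusted p under 0.05), with a median log2 difference of 0.59. That is 57.8% rose and 1.2% fell, against 29.0% and 17.8% of all measured genes. Without the Firefly array 21 rose (25.3% against 15.0%) and 0 fell. After loess 32 rose (38.6% against 23.0%) and 1 fell, and after upper-quartile scaling 28 rose (33.7% against 20.6%) and 3 fell. Without the 38 h array 32 rose (38.6% against 25.4%). The largest differences were those of Luc7l, a relative of a yeast U1 snRNP protein, from 7.65 and 8.10 to 9.84 and 9.99 (4.11-fold, limma adjusted p = 0.000847), and Cdc5l of the Prp19 complex, from 8.29 and 8.70 to 10.43 and 10.34 (3.71-fold, limma adjusted p = 0.00089). Gemin2, which helps to assemble Sm rings, lay below the floor in both day 6 cultures and read 8.16 and 8.18 in iPSC (log2 1.51 from the floor). Lsm5 was also below the floor in both day 6 cultures, and its rise came to 0.17 from the floor (limma adjusted p = 0.0468 as read). Gemin2 and Lsm5 thus passed the filter only through the iPSC, where they were higher. Txnl4a, a small U5 protein, was the gene that fell, from 11.04 and 11.06 to 10.59 and 10.74 (log2 -0.39, limma adjusted p = 0.0418).

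By role, 4 of 5 U1 genes, 4 of 8 genes of the Sm list and 5 of 7 Lsm genes rose. So did 6 of 10 U5 and tri-snRNP genes, 7 of 10 Prp19 complex genes and 6 of 8 helicase and second-step genes. The Sm list also held Snrpa1 (0.93) and Snrpb2 (0.62), which encode U2 snRNP proteins, and both rose. Of its Sm protein genes, Snrpd1 and Snrpe rose, while Snrpb, Snrpd2, Snrpd3 and Snrpg did not pass. Of the genes for SR kinases and SR-like proteins 5 of 8 rose, of the minor spliceosome 3 of 5, of the SMN complex list 3 of 6, of the exon junction complex 2 of 5 and of branch point factors 1 of 3. The share over all measured genes was 29.0%. The hnRNP genes with other symbols resembled the Hnrnp family in their count, with 2 of 8 that rose (Raly and Tardbp) and Ptbp1 at 0.16, which did not pass. Between the day 6 cultures 71 of 81 measured genes of the list read higher under the Sumo2 label, or 87.7% against 53.7% of all measured genes, with a median of 0.24.

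**Figure D5:**
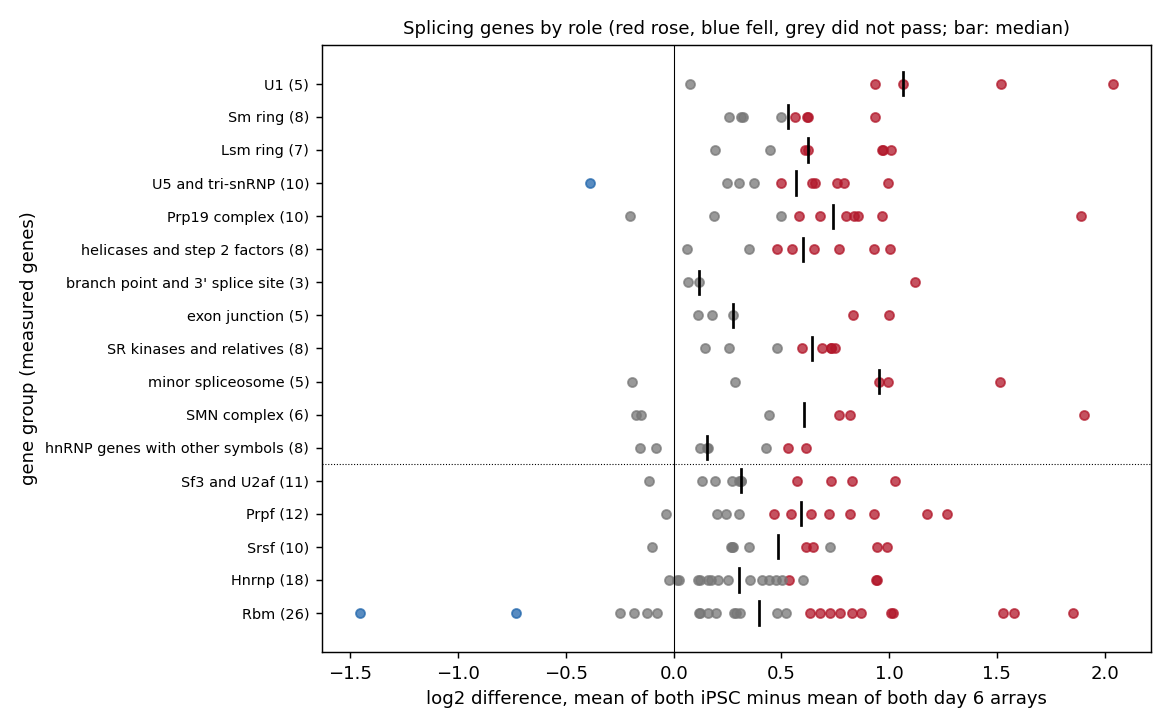
Log2 difference between the means of the iPSC and the day 6 arrays for measured splicing genes by role (points), with the median of each group as a black bar; groups below the dotted line are the 5 families chosen by symbol, and the numbers in brackets are the measured genes. Red points rose, blue points fell and grey points did not pass (limma adjusted p under 0.05). The U1 group has a median of 1.07 and the Hnrnp family 0.30. The Sm ring group also holds the U2 snRNP genes Snrpa1 and Snrpb2.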

How the data were processed

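The deposited values are log2 expression for 41345 probe sets on 4 arrays, made by the authors with RMA. The program was Affymetrix Expression Console, as the submitters' processing notes say. Versions and settings are not given in the sources used here, and the log base was taken from the range of the values. Quantile normalization hides a change in total RNA per cell. The deposited arrays still differed in their upper quartile over all probe sets. It was 7.93 (Firefly) and 7.92 (Sumo2 label) at day 6, and 8.14 (38 h) and 8.17 (10 day) in iPSC. Arrays give no read depth, and their number limits the precision.

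Gene names came from the platform annotation: 23521 probe sets had 1 symbol, 1814 had several and 16010 had none listed. Entrez identifiers of 23328 were found in the GRCm38.p6 gene table, which changed 0 symbols. Both iPSC arrays were compared with both day 6 arrays in R 4.3.3 using limma 3.58.1, its eBayes step letting the variance follow intensity, on 2 residual degrees of freedom, and Benjamini-Hochberg adjustment over all measured genes. Pairs of 1 array with 1 used fold rules of 2 and 1.5. The limma step was checked on simulated data.

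The members and lists were chosen with earlier results of these data known. Named in the first comparison were up to 5 highest and 5 lowest called genes per family whose arrays did not overlap; in each pair the 8 highest and 8 lowest; and fixed sets of relatives. Sf3a1, Sf3a2, Sf3b2, Sf3b5, Sf3b6, U2af2, Prpf6, Prpf19, Srsf11, Hnrnpk, Rbm22 and the other spliceosome genes beyond the largest were named after their values were seen. The promoter motifs were also chosen then. Hnrnpa1, Hnrnph3, Rbm3, Rbm4, Rbm10, Rbm12, Rbm14, Rbm18 and Rbm42 have only probe sets shared with other genes and were not members, and genes with no probe set in the annotation, such as Srsf7, were not analysed here. Alternatives were the filter, the scaling, the choice of probe set, limma settings and leaving out each array.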

Additional observations from a re-analysis of the deposited data

How the results depend on the processing

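The count of genes that rose from day 6 to iPSC, 30 as reported, ranged from 21 to 30 over the filters, scalings, probe set rule and limma settings tried other than leave-one-out, and from 11 to 37 when each array was left out in turn. It was 11 without the Firefly array, and 8 when 2-fold was also required. The count that fell was 2, from 1 to 2 with 1 array left out (1 without the Firefly, Sumo2 or 38 h array), and 1 with 2-fold also required. In those fits 1 residual degree of freedom remains and the lone array is taken to vary like the pair. The median difference of 0.35 fell to 0.15 after upper-quartile scaling and ranged from 0.26 to 0.51 with 1 array left out. The pairs had 0 genes 2-fold higher, and 3 in each pair at 1.5-fold. Of the 32 genes called, 23 kept their calls after cyclic loess and 23 after upper-quartile scaling, 28 with no filter, 29 without the intensity trend, 12 without the Firefly array and 21 without the 38 h array. None of the 32 changed direction under these settings. The cause of these changes was not tested. No paired analysis was possible because the labels carry no replicate numbers. Probe sets near the floor limit folds to lower bounds.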

Other observations

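Genes of the same families on probe sets shared with other genes were left out above, and their values are given without a test, since a shared probe set does not say which gene it reads. A probe set of Hnrnph3 and Rufy2 read 7.53 with Firefly, 8.22 with Sumo2 knockdown, 9.47 in 38 h and 9.27 in 10 day iPSC, a log2 difference between iPSC and day 6 of 1.49, larger than that of Hnrnph1, Hnrnph2 or Hnrnpf. The Firefly array was the lowest and both iPSC arrays were above both day 6 arrays. A probe set of Hnrnpa1 and its retrocopies read 11.82, 12.19, 12.55 and 12.54, a difference of 0.54, and a second read 11.13, 11.48, 11.88 and 11.92. The probe set of X-linked Rbm10 and Gm15455 read 9.10, 9.23, 9.57 and 9.88, with the 10 day array the highest. The cold-inducible gene Rbm3, read together with its pseudogene, stood at 11.85, 11.96, 11.73 and 11.97. It differed by -0.05 between iPSC and day 6, and was 0.24 higher in the 10 day than in the 38 h line. Rbm42, read with Haus5, and Rbm18, read with Mrrf, differed by -0.10 and -0.11.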
